A study of Mus musculus with 2 samples.

Results

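Of the 54838 genes in the deposited tables, 40 genes of the cell division cycle were followed: 17 that act in S phase, when DNA is copied, and 23 that act in G2 and mitosis (G2/M). They were chosen as a list of symbols, with no expression value in the rule, and all 40 symbols were found in the tables. The list was, however, drawn up with earlier results of these data known. They were read in 2 single-cell RNA libraries of intestinal immune cells, 1 from WT mice and 1 labelled DPF2 KO (called KO here), both after X-irradiation of the mice at 10 Gy. There is no library from unirradiated mice, so nothing here shows what irradiation itself did. Live cells had been gated with or without GFP or tdTomato signal, and which gates went into which library, and in what proportion, is not stated, so the sort can set the size of every class. Also not stated are how long after irradiation the cells were taken, how many mice were pooled and of which sex, and which part of Dpf2 was deleted in which cells. The question was which immune cell types still carried transcripts of division after irradiation, and how these compared between the WT and KO libraries.

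A cell that divides first licenses its replication origins by loading the Mcm helicase, then makes deoxynucleotides and copies its DNA behind the Pcna clamp. In G2 and mitosis, cyclins A and B with Cdk1 drive chromosome condensation, kinetochores and the spindle pull the chromosomes apart, and the anaphase-promoting complex ends mitosis. Most of these genes are transcribed in waves, through E2F factors in late G1 and S phase and through CHR and CCAAT promoter elements in G2/M. Ionizing radiation halts the cycle at checkpoints, in part through p53 and its target Cdkn1a, an inhibitor of cyclin-dependent kinases. In the gut, activated T cells, germinal centre B cells, plasmablasts and dendritic cell precursors can divide, while mature neutrophils have left the cycle for good.

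The WT library held 64786549 UMIs (unique molecular identifiers, each 1 captured RNA molecule) and the KO library 49590755. After filtering, 10259 WT cells (median 4543 UMIs) and 8265 KO cells (median 4112 UMIs) remained, and 24 barcodes occurred in both libraries. Cells were clustered without any of the cell cycle genes studied here, and clusters were named from marker genes. A class name is short for cells like that type, and the classes include 251 thinned WT and 27 thinned KO stromal-like cells, which are no immune cells. With 1 library per genotype no test was possible, no difference has a replicate check, and every interval is a 95% interval for counting error only. UMIs of 1 cell are not independent draws, so these intervals are too narrow for differences between mice. Both libraries held cells with Xist and cells with Y-linked transcripts. Dpf2 itself, a subunit of the BAF chromatin remodelling complex, had 40 UMIs per 1000000 in WT T cells and 17.8 in KO T cells (ratio 0.444, 0.367 to 0.533). In plasma cells its ratio was 0.739 (0.547 to 0.986) and in conventional dendritic cells 0.455 (0.361 to 0.571). The KO library thus had less Dpf2 RNA but was not without it, and a transcript end outside the deleted part would check nothing.

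The promoters of 8 members are shown first, because the members that stood furthest apart between the libraries, and those that did not, can be read beside them. Among the S and among the G2/M members these are the 2 members with the lowest KO:WT ratios in T and plasma cells, the member nearest to no difference and the member with the most motif matches. Each line holds the 250 bases before the annotated transcription start, 5′ to 3′ in the direction of the gene, from RefSeq on GRCm38.p6. Capitals mark matches, on either strand, to an E2F-type core (the letters TTCCCGC, the letters TTGGCGC, the letters TTCGCGC or the letters TTGCCGC), the CHR core (TTTGAA) or the CCAAT box (CCAAT). Overlapping matches were each counted, which concerns the E2F-type cores of Mcm6 and a pair of CCAAT boxes of Ube2c. The S members are Pclaf (a Pcna-binding factor, chr9:65890073-65890322, plus strand), Dut (chr2:125247265-125247514, plus strand), Cdt1 (chr8:122567765-122568014, plus strand) and Mcm6 (chr1:128359706-128359955, minus strand). The G2/M members are Ube2c (chr2:164769679-164769928, plus strand), Birc5 (chr11:117848987-117849236, plus strand), Kif23 (chr9:61946800-61947049, minus strand) and Top2a (chr11:99024190-99024439, minus strand).
Pclaf: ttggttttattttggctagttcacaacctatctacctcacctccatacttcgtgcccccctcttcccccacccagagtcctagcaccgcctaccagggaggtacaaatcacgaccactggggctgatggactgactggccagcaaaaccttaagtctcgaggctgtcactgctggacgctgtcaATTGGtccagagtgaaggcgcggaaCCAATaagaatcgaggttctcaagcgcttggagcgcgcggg
Dut: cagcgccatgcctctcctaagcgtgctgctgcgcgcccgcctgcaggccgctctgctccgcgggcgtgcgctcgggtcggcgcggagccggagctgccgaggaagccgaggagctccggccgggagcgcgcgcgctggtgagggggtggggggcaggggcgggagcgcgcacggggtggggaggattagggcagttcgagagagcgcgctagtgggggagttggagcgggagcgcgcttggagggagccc
Cdt1: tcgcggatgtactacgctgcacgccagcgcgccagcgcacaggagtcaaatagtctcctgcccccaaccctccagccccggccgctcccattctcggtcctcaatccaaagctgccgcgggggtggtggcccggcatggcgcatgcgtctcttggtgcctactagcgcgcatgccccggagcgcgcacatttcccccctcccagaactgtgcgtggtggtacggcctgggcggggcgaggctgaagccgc
Mcm6: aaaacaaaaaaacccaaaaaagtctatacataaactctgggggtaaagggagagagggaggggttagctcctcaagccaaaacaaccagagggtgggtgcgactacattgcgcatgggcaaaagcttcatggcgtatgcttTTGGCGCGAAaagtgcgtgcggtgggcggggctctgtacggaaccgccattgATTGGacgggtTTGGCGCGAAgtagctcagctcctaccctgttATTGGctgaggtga
Ube2c: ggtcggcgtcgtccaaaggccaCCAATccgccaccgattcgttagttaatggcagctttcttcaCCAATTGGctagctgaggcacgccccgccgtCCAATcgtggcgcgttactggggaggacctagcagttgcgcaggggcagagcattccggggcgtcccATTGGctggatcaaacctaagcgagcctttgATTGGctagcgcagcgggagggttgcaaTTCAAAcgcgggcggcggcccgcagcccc
Birc5: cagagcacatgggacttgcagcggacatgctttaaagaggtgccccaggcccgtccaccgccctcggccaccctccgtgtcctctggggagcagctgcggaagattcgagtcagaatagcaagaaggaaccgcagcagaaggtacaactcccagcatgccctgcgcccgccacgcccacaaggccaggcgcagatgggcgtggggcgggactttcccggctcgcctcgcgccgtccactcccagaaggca
Kif23: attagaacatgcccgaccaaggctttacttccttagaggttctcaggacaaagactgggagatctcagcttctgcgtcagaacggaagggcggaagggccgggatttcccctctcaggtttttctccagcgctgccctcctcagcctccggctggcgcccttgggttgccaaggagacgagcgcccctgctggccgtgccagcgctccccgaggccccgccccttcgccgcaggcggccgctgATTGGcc
Top2a: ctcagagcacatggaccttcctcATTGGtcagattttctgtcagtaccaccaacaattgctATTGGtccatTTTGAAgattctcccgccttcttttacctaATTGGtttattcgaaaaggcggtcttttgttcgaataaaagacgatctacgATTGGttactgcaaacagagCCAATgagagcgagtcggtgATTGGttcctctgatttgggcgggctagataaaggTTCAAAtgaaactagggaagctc

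Mcm6 held 4 E2F-type cores and 2 CCAAT boxes, Top2a held 2 CHR cores and 6 CCAAT boxes, and Ube2c held 1 CHR core and 6 CCAAT boxes. Pclaf held 2 CCAAT boxes and Kif23 held 1. None of these letters occurred in the windows of Dut, Cdt1 and Birc5. In another annotation (GENCODE) Dut starts upstream of its whole window, and Pclaf and Ube2c start within theirs. By that annotation the letters searched for Dut lie inside the gene. The table held promoters for 34 of the 40 members (Mcm4, Gins2, Ccna2, Tpx2, Aurkb and Stmn1 had no entry). An E2F-type core was found in 9 of 17 promoters of S members (52.9%) and in 4 of 19 of G2/M members (21.1%), against 7.89% of all 32851 promoters of the same length. The CHR core was found in 1 of 17 (5.88%) and 6 of 19 (31.6%), against 16.0% of all. A CCAAT box stood in 12 of 17 (70.6%) and 17 of 19 (89.5%), against 33.8% of all. CHR core and CCAAT box occurred together in 31.6% of the G2/M promoters and in 5.55% of all. A match is a description of the letters and not a measured binding site. Among the printed windows, both the members lowest in this ranking (Pclaf, Dut, Ube2c and Birc5) and those nearest to no difference (Cdt1 and Kif23) include promoters without any E2F-type core. The window of Rrm2, whose plain ratio was lower than that of Dut, held 1 E2F-type core and 1 CCAAT box.

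To count cells that carried transcripts of division, every cell was reduced at random to 1000 UMIs, and cells with at least 3 of the 40 members detected were called multi-member cells. This left out 424 WT and 312 KO cells of lower depth. Over all classes, 462 of 9835 WT cells (4.70%) and 203 of 7953 KO cells (2.55%) were multi-member cells. Neutrophils, which no longer divide and were set as the background, had 1 of 211 (0.474%, 0.0120 to 2.61) in WT and 2 of 429 (0.466%, 0.0565 to 1.67) in KO, at median depths of 1469.5 and 1749 UMIs before thinning. T cells (4081 and 4150 UMIs before thinning), B cells and conventional dendritic cells stood above this background in both libraries, with intervals that did not overlap, and so did plasma cells and NK cells in WT. In KO, plasma and NK cells overlapped with it, as did monocytes or macrophages in both libraries (14 of 1518, 0.922%, in WT and 15 of 1089, 1.38%, in KO). A single detected member said little, since 46.6% of WT T cells and 34.6% of WT neutrophils had at least 1. This share was 49.0% in KO B cells and 39.4% in KO neutrophils. The neutrophil background does not allow for such differences, so it does not show that KO B cells were dividing.

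In T cells, multi-member cells made up 245 of 3652 (6.71%, 5.92 to 7.57) in WT and 44 of 1632 (2.70%, 1.97 to 3.60) in KO. The 2 intervals did not overlap, and the KO:WT ratio was 0.402, with bounds of 0.260 and 0.609 from opposite ends of the 2 share intervals. Over 20 random thinnings the ratio lay between 0.366 and 0.543. In plasma cells the shares were 79 of 1301 (6.07%, 4.84 to 7.51) in WT and 7 of 606 (1.16%, 0.466 to 2.37) in KO (ratio 0.190, 0.0620 to 0.489). In B cells they were 54 of 1112 (4.86%, 3.67 to 6.29) in WT and 63 of 2417 (2.61%, 2.01 to 3.32) in KO, which is 0.537 times the WT share (0.319 to 0.906). Conventional dendritic cells went the other way, with 29 of 644 (4.50%, 3.04 to 6.4) in WT and 42 of 634 (6.62%, 4.82 to 8.85) in KO. That ratio of 1.47 (0.752 to 2.91) included no difference, and 20 thinnings gave 0.914 to 2.19. NK cells had 16 of 323 (4.95%) and 9 of 246 (3.66%), a ratio of 0.739 (0.213 to 2.39). That draw lay at the upper end for NK cells: 20 thinnings gave 0.146 to 0.739, and 0.455 from the mean shares.

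**Figure D1:**
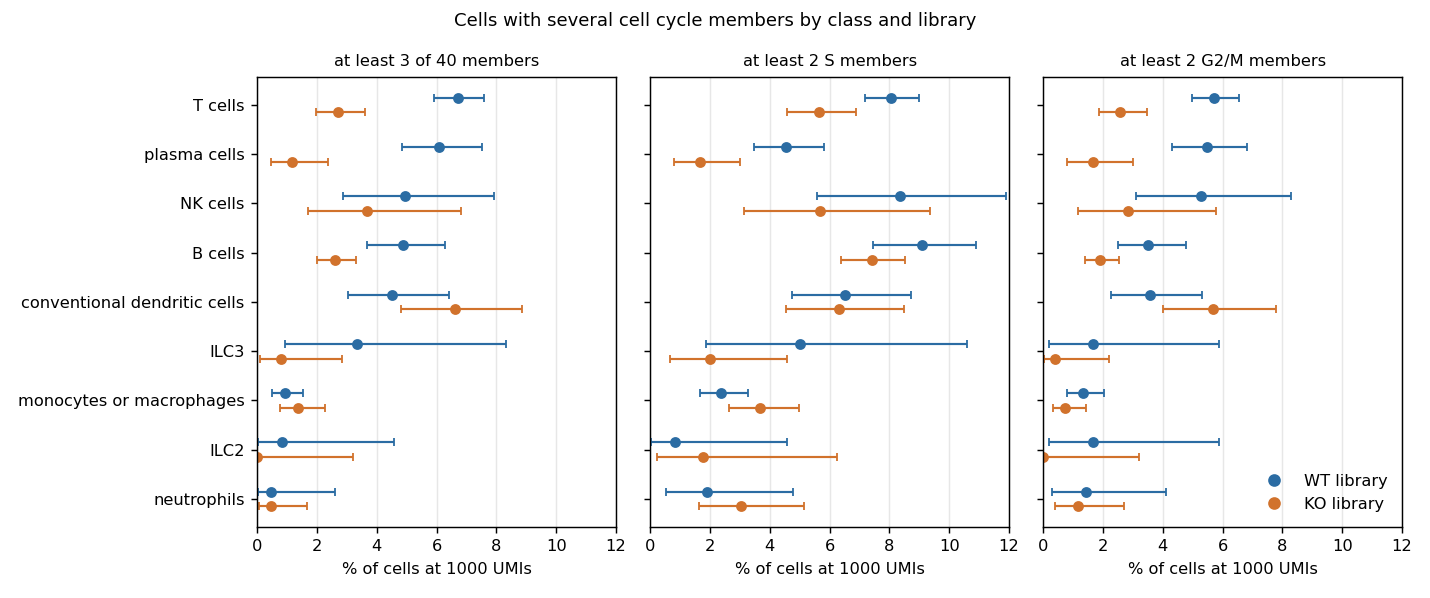
Share of cells (x axis, % of cells thinned to 1000 UMIs) with at least 3 of the 40 members (left), at least 2 S members (middle) or at least 2 G2/M members (right), by class (y axis) and library (blue WT, orange KO). Points are shares and bars exact 95% intervals. T cells (6.71% in WT and 2.70% in KO) and plasma cells (6.07% and 1.16%) stand apart between the libraries in the left panel, while conventional dendritic cells overlap.

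The small classes gave few such cells. ILC3 had 4 of 120 in WT and 2 of 251 in KO, and ILC2 had 1 of 120 and 0 of 113, where a count of 0 allows a share of up to 2.65%. Plasmacytoid dendritic cells had 0 of 41 and 0 of 32, which allows up to 7.32% and 9.38%. Stromal cells had 1 of 251 and 0 of 27, and endothelial cells 1 of 112 and 0 of 43. At these numbers a share like that of T cells (6.71% in WT and 2.70% in KO) was not excluded in plasmacytoid dendritic cells. Exact intervals, wider than these limits for a count of 0, also reached it in ILC3 (8.31% in WT and 2.85% in KO). In KO they reached it in ILC2 (3.21%), stromal cells (12.8%) and endothelial cells (8.22%) too.

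The difference in T cells became larger as more members were required. At least 4 members were found in 4.27% of WT and 1.16% of KO cells (ratio 0.273, 0.141 to 0.498), and at least 5 gave a ratio of 0.220. B cells were split more sharply: at least 2 members gave a ratio of 0.986, at least 3 gave 0.537 and at least 4 gave 0.204 (3.24% and 0.662%). With each cell thinned to 2000 UMIs the B cell ratio was 1.0, and without thinning it was 1.07. The lower KO share in B cells therefore belonged to cells with 4 or more members, and it was not seen in cells with few. Without thinning, 36.2% of WT and 32.2% of KO T cells had at least 3 members (ratio 0.890), and thinning to 2000 UMIs gave 0.626. In plasma cells at least 2 members gave 0.5 and no thinning 0.715.

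**Figure D2:**
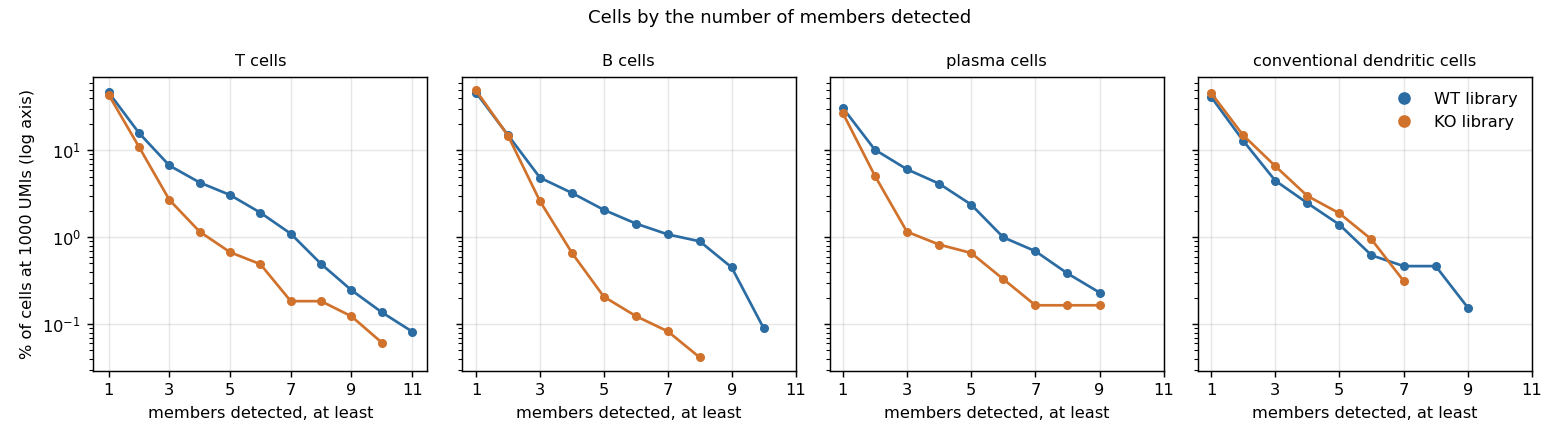
Share of cells (y axis, %, log scale) with at least the number of members on the x axis, each cell thinned to 1000 UMIs, in 4 classes of the WT (blue) and KO (orange) libraries. In B cells the libraries lie together up to 2 members and part from 3 members on (4.86% in WT and 2.61% in KO), and in conventional dendritic cells the KO library lies at or above WT up to 6 members.

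Most multi-member cells had both S and G2/M members. Of the 245 WT T cells, 202 held at least 1 S and at least 1 G2/M member, 22 held S members only and 21 G2/M members only. Of the 44 KO T cells, 39 held both. The same was true of 65 of 79 WT and 6 of 7 KO plasma cells, and of 22 of 29 WT and 35 of 42 KO conventional dendritic cells. In B cells 45 of 54 WT and 44 of 63 KO multi-member cells held both, and 16 of the KO cells held S members only. In T cells, multi-member cells were larger libraries than their class. Their median before thinning was 9332 UMIs in WT, against 4081 for all WT T cells, and 5998.5 in KO. In B cells it was 10832 against 3542 for the class in WT, but 3524 against 3343.5 in KO. Among barcodes called doublets, which were left out, 4.35% in WT and 3.70% in KO were multi-member cells.

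To see whether S and G2/M transcripts lay in the same cells without using 1 set to choose itself, cells were chosen by at least 2 S members and read for G2/M members. In WT T cells, 294 such cells (8.05%) held 13.3% of all UMIs but 40.9% of the G2/M UMIs, 6.15 times the G2/M level of cells without any S member. In KO T cells, 92 such cells (5.64%) held 7.52% of all UMIs and 28.1% of the G2/M UMIs (5.21 times). In plasma cells the G2/M level of S-chosen cells was 8.80 times that of cells without S members in WT and 7.71 times in KO. In B cells it was 7.97 times in WT (1720 against 215.7 UMIs per 1000000) and 2.48 times in KO (544.0 against 219.6). In NK cells it was 4.71 times in WT and 7.72 times in KO, and in conventional dendritic cells 4.93 and 2.96 times. Monocytes or macrophages had the lowest values of these classes, 0.978 times in WT and 1.82 times in KO. The G2/M level was thus higher in S-chosen cells in both libraries of T, NK, B, plasma and conventional dendritic cells. Differences between libraries were not tested and depend on the limit: with at least 3 S members the values were 8.32 in WT and 11 in KO T cells, and 11.9 in WT and 5.53 in KO B cells. The same limit gave 2.25 in WT and 3.89 in KO monocytes or macrophages, from 5 and 9 cells.

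Within T cells the shares differed by cluster. The cluster led by Ikzf2 and Tnfrsf4 had the highest share, with 121 of 777 (15.6%, 13.1 to 18.3) in WT and 16 of 228 (7.02%, 4.06 to 11.1) in KO. The cluster led by Klrc1, Cd8b1 and Cd8a had 6.04% in WT and 2.90% in KO, and the cluster led by Il17a had 5.65% and 1.83%. The clusters led by Il12rb2 (1.17% and 1.07%) and Lef1 (3.28% and 2.47%) were lower in WT and closer between the libraries. Different clusters hold most T cells in the 2 libraries: in the order Klrc1, Il12rb2, Il17a, Ikzf2 and Lef1 they held 1138, 865, 750, 785 and 189 WT cells and 329, 376, 438, 229 and 302 KO cells. Averaged over 20 thinnings, the KO:WT ratio was below 1 in each of the 5 clusters (0.458, 0.589, 0.463, 0.472 and 0.817 in that order), though single thinnings passed 1 in the Il12rb2 and Lef1 clusters.

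WT multi-member T cells more often had a Gzma or Gzmb UMI, granzymes of cytotoxic cells, than other WT T cells (43.7%, 37.4 to 50.1, against 29.8%, 28.2 to 31.3). In KO the shares were 31.8% (18.6 to 47.6) and 15.9% (14.2 to 17.8). Cd8a or Cd8b1 was found in 13.9% (9.81 to 18.8) of WT multi-member T cells and 9.63% (8.66 to 10.7) of the others. In KO it was found in 2 of 44 (4.55%, 0.555 to 15.5) and in 4.79% (3.79 to 5.95). Cd4 was found in 8.16% and 10.6% in WT, Foxp3 in 0.816% and 1.06%, and Trdc in 0.816% and 0.205%. Il17a or Il17f was found in 9.80% and 8.22% in WT, and the intervals of all these markers overlapped. Of B cells, 6 of 54 WT multi-member cells (11.1%, 4.19 to 22.6) had a UMI of Rgs13, a regulator of chemokine signalling found in germinal centre B cells, against 0.756% (0.327 to 1.48) of other WT B cells. In KO these were 1 of 63 (1.59%, 0.0402 to 8.53) and 0.765% (0.454 to 1.21). Igha, the heavy chain of IgA, led in 76 of 79 multi-member plasma cells in WT and in 7 of 7 in KO. It led in most plasma cells of either kind (1273 of 1301 in WT and 557 of 606 in KO), so it does not set the multi-member cells apart.

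Conventional dendritic cells held 2 clusters. The cluster led by Xcr1, with Clec9a among its leading genes, had 10 of 146 multi-member cells in WT (6.85%, 3.33 to 12.2) and 21 of 110 in KO (19.1%, 12.2 to 27.7). Averaged over 20 thinnings these were 10.4% and 17.0%, with a ratio between 1.01 and 2.65. The cluster led by Ccl17 and Ccl22 had 19 of 498 (3.82%) and 21 of 524 (4.01%). Ccr7 or Fscn1, genes of mature migratory dendritic cells, were found in 3 of 42 KO multi-member cells (7.14%, 1.5 to 19.5) and in 31.2% (27.5 to 35.2) of the other KO dendritic cells. In WT they were found in 6.90% (0.846 to 22.8) and 17.1% (14.2 to 20.3).

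Summed over all cells of a class, and without thinning, both sets were lower in KO T, B and plasma cells, the G2/M members by more. A level is the UMIs of a gene or list per 1000000 UMIs of all genes in the class. In T cells the 17 S members summed to 753.1 in WT and to 495.3 in the KO library (ratio 0.658, 0.634 to 0.682), the 23 G2/M members to 581.3 and 267.0 (0.459, 0.438 to 0.482). In plasma cells the S sum was 394.0 and 206.9 (0.525, 0.490 to 0.562) and the G2/M sum 459.5 and 164.0 (0.357, 0.331 to 0.384). B cells had 699.9 and 517.0 for S (0.739, 0.707 to 0.772) and 462.0 and 245.2 for G2/M (0.531, 0.5 to 0.563). Conventional dendritic cells had 493.7 and 527.1 for S (1.07, 1.02 to 1.12) and 384.8 and 440.3 for G2/M (1.14, 1.09 to 1.21). In bulk sums of this kind, fewer cells in cycle and less RNA per such cell cannot be told apart.

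NK cells had S and G2/M ratios of 0.774 (0.699 to 0.857) and 0.616 (0.546 to 0.694), and ILC3 0.800 (0.676 to 0.948) and 0.611 (0.494 to 0.758). Monocytes or macrophages had 1.17 (1.11 to 1.24) and 0.935 (0.872 to 1.0). ILC2 had 0.944 (0.756 to 1.18) and 0.771 (0.626 to 0.949). These small classes were not stable: thinned cells gave 1.0 for S in NK cells and 1.48 for G2/M in ILC2, and cells with Xist alone gave 1.58 for S in ILC3. In neutrophils the S ratio of 0.677 (0.567 to 0.811) rested on 1 WT cell that held 34.4% of the S UMIs, and without multi-member cells it was 0.999 (0.807 to 1.24). The B cell sums rested on few cells too: giving each cell equal weight moved the G2/M ratio from 0.531 to 0.826, and cells with Y-linked transcripts alone gave 0.829. In conventional dendritic cells, classes drawn from marker UMIs turned both ratios round (0.899 for S and 0.814 for G2/M), as did cells with Xist alone (0.795 and 0.846), and without Pcna the S ratio was 0.998.

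The sums were also split into multi-member and remaining cells. As multi-member cells were chosen by these same members, their large part of the member UMIs was partly set in advance. Leaving them out lowers a sum most where they are most common, so these values describe and do not locate the difference. Multi-member cells held 63.4% of the G2/M UMIs of WT T cells with 14.3% of all UMIs. In KO T cells they held 30.5% of the G2/M UMIs with 4.62% of all UMIs. Among the remaining T cells the KO:WT ratio was 0.910 (0.872 to 0.95) for S and 0.782 (0.735 to 0.831) for G2/M. Among the remaining plasma cells it was 0.846 (0.783 to 0.913) and 0.601 (0.548 to 0.658). B cells differed: outside multi-member cells the KO level was the higher one, with 1.06 (1.01 to 1.12) for S and 1.21 (1.11 to 1.32) for G2/M. In conventional dendritic cells the ratios outside multi-member cells were 1.02 (0.968 to 1.08) and 1.14 (1.07 to 1.22).

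A member was counted as lower or higher in KO if the levels, after adding 10 per 1000000 to each, differed by at least 1.5-fold, among members with at least 50 UMIs over both libraries. In T cells 15 of 39 such members were lower (6 of 17 S and 9 of 22 G2/M), against 2.83% of all 12032 genes measured there, and 0 were higher (1.91% of all genes). The median log2 ratio was -0.52 for the members and 0.00265 for all genes. In plasma cells 20 of 37 were lower (8 of 16 S and 12 of 21 G2/M), against 6.54% of all genes, and 0 were higher (2.22%). The medians there were -0.61 and -0.13. In B cells 11 of 33 were lower (2 of 16 S and 9 of 17 G2/M), against 2.8% of all genes, and 0 were higher (1.11%). Plk1 in all 3 classes, Gins2 and Aurka in plasma cells, and Tk1, Cdk1, Ccnb1, Bub1, Aurkb, Plk1 and Hmmr in B cells had too few UMIs to count.

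These counts depend on how low members are weighted. With 1 in place of 10 per 1000000, 30 members were lower in T cells, 31 in plasma cells and 17 in B cells, and with 50 the counts were 4, 5 and 3. A 2-fold limit left 7, 8 and 5, against 0.366%, 0.999% and 0.329% of all genes. T cells gave 8 when cell cycle genes were kept in the clustering and 9 in cells with Y-linked transcripts alone, where B cells gave 1. Plasma cells gave 10 when classes were drawn from marker UMIs. For all these settings but the 2-fold limit, no share of all genes stands beside the count. Such counts show how the number moves and are no result about the members. NK cells had 4 of 16 lower (Stmn1, Mcm3, Cenpa and Pclaf, against 4.35% of all genes) and 0 higher (4.14%). Conventional dendritic cells had 0 of 37 lower and 0 of 37 higher, against 2.53% and 3.4% of all genes. Monocytes or macrophages had 1 of 24 lower (Mki67, against 2.35%) and 1 higher (Cdt1, against 3.47%). ILC3 had 1 of 6 lower (Stmn1, against 6.39%) and 0 higher (5.59%), and ILC2 had 0 of 2 lower (7.34%) and 0 higher (9.7%). Neutrophils had 1 of 3 lower (Stmn1, against 9.34%) and 1 higher (Kif23).

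**Figure D3:**
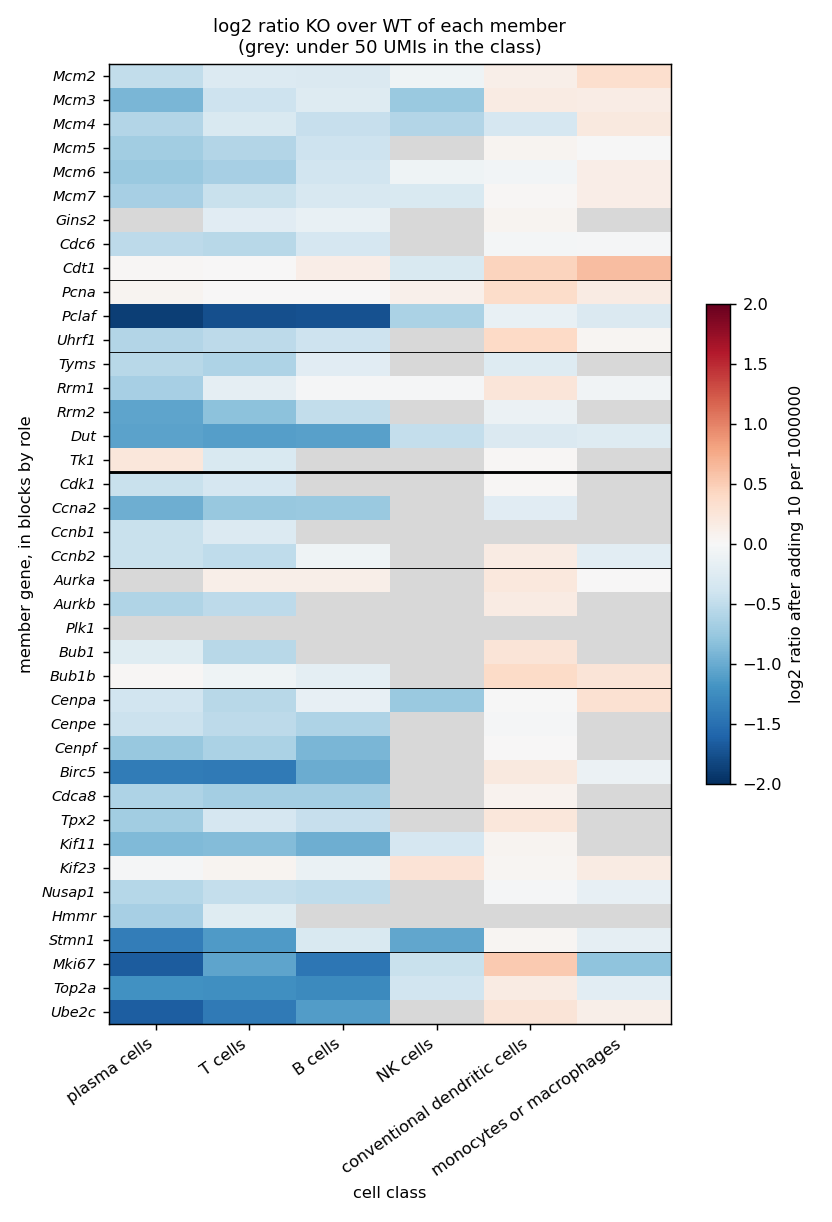
Log2 ratio of KO over WT (colour, blue lower and red higher in KO, after adding 10 per 1000000) of each of the 40 members (rows, in blocks by role, S members above the heavy line) in 6 classes (columns), with grey for members under 50 UMIs in the class. T, B and plasma cells share dark blue at Pclaf, Dut, Top2a, Mki67, Ube2c and Birc5 and near-white at Pcna and Cdt1, while conventional dendritic cells are close to white or red in most rows.

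Helicase and origin licensing members together had a ratio of 0.685 (0.646 to 0.726) in T cells, 0.519 (0.465 to 0.577) in plasma cells, 0.808 (0.758 to 0.861) in B cells and 1.05 (0.971 to 1.13) in conventional dendritic cells. In T cells, Mcm6 had levels of 61.4 and 35.1 (ratio 0.573, 0.5 to 0.655), WT first here and below, and Mcm5 had 24.8 and 13.1 (0.530, 0.423 to 0.659), and both passed 1.5-fold. Mcm2, Mcm3, Mcm4 and Mcm7, the other subunits of the ring that unwinds DNA, had ratios between 0.648 and 0.768. In plasma cells Mcm3 (23.9 and 7.94, ratio 0.332, 0.232 to 0.466), Mcm5 (0.315), Mcm6 (0.502) and Mcm7 (0.396) passed 1.5-fold. Cdc6 and Cdt1 load the ring onto origins, yet they differed here. Cdc6 had 12.5 and 5.41 in T cells (0.432, 0.303 to 0.602), whereas Cdt1 had 29.7 and 29.6 (0.995, 0.849 to 1.16). In plasma cells Cdt1 had 22.1 and 22.8 (1.03, 0.818 to 1.29), in B cells 68.7 and 76.5 (1.11, 0.976 to 1.27), and in monocytes or macrophages it was the member higher in KO (ratio 1.69, 1.47 to 1.95). Gins2, of the GINS complex that travels with the helicase, had 4.80 and 2.70 in T cells (0.564, 0.332 to 0.917).

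Pcna, the sliding clamp of DNA polymerases, and Pclaf, the small protein that binds it, differed in T, B and plasma cells. Pcna had 169.2 in WT and 170.1 in KO T cells (ratio 1.01, 0.941 to 1.07), 66.5 and 69.0 in plasma cells (1.04, 0.911 to 1.18) and 154.4 and 154.3 in B cells (0.999, 0.914 to 1.09). Pclaf had 88.6 and 19.1 in T cells (0.215, 0.180 to 0.255), 53.8 and 7.32 in plasma cells (0.136, 0.0945 to 0.191) and 78.7 and 16.4 in B cells (0.208, 0.172 to 0.251). In conventional dendritic cells Pclaf had 73.5 and 65.2 (0.886, 0.780 to 1.01) and Pcna 105.4 and 139.6 (1.32, 1.2 to 1.46). Pclaf was thus the lowest of the S members in T, B and plasma cells, with levels in KO below those in WT by more than 4-fold. Uhrf1, which brings maintenance methylation to newly copied DNA, had 23.9 and 13.6 in T cells (0.570, 0.456 to 0.707) and 16.9 and 25.7 in conventional dendritic cells (1.51, 1.19 to 1.93).

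The members that supply deoxynucleotides summed to a ratio of 0.527 (0.487 to 0.569) in T cells, 0.412 (0.353 to 0.480) in plasma cells and 0.576 (0.513 to 0.647) in B cells. Dut, which removes dUTP, had 100.1 and 41.3 in T cells (0.413, 0.365 to 0.465), 44.6 and 16.1 in plasma cells (0.361, 0.281 to 0.457) and 61.5 and 23.6 in B cells (0.383, 0.321 to 0.457). The subunits of ribonucleotide reductase differed. Rrm2, the subunit made in S phase, had 20 and 6.95 in T cells (0.348, 0.256 to 0.464), while Rrm1 had 51.4 and 44.2 (0.859, 0.756 to 0.973). In plasma cells both were lower past 1.5-fold, Rrm2 with 17.4 and 3.26 (0.187, 0.105 to 0.311) and Rrm1 with 19.4 and 8.55 (0.441, 0.309 to 0.614). Tyms, thymidylate synthase, had 15.2 and 6.57 in T cells (0.431, 0.313 to 0.583). Tk1, thymidine kinase, had 4.40 and 1.67 in T cells (0.380, 0.194 to 0.689) but 6.38 and 9.16 in plasma cells, where the interval of the ratio included 1 (1.43, 0.971 to 2.10).

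**Figure D4:**
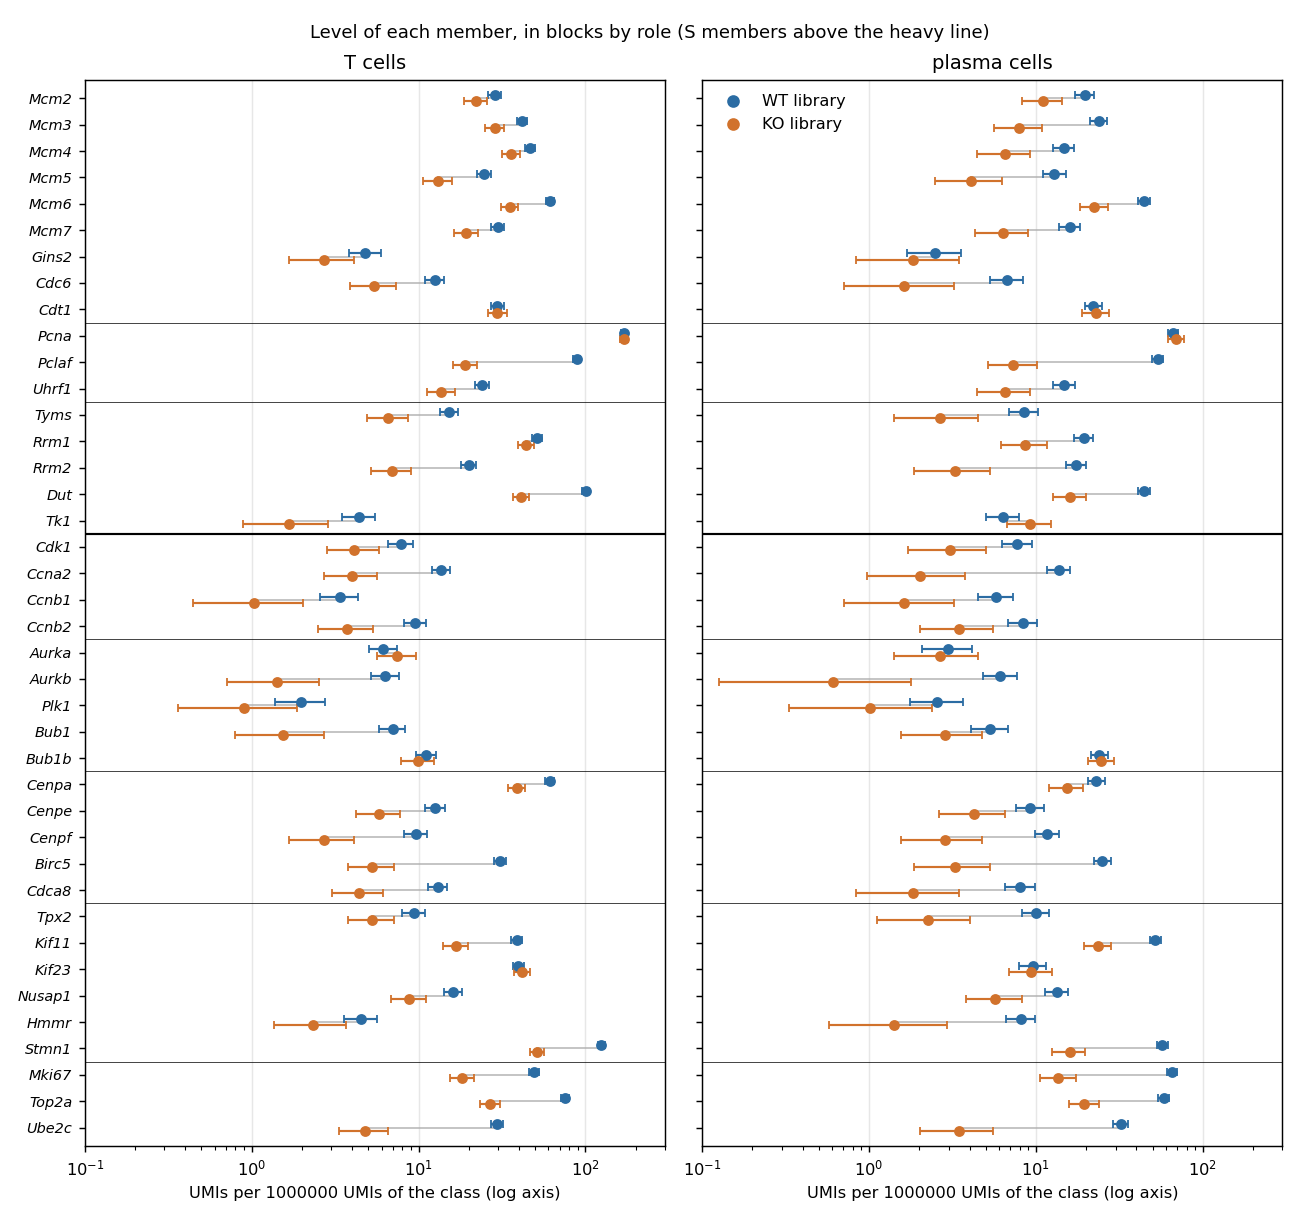
Level of each of the 40 members (y axis, in blocks by role, S members above the heavy line) in T cells (left) and plasma cells (right), as UMIs per 1000000 UMIs of the class (x axis, log scale), in WT (blue) and KO (orange). Bars are exact 95% Poisson intervals, and grey lines join the libraries of 1 gene. Pclaf (88.6 and 19.1 in T cells) and Ube2c (29.5 and 4.76) lie far apart, while Pcna, Cdt1 and Kif23 nearly coincide.

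The mitotic cyclins and Cdk1, the engine of mitosis, summed to 34.4 in WT and 12.9 in KO T cells (0.374, 0.3 to 0.463), 35.6 and 10.2 in plasma cells (0.285, 0.209 to 0.383) and 30.3 and 12 in B cells (0.395, 0.307 to 0.509). Ccna2, cyclin A, had 13.7 and 3.99 in T cells (0.292, 0.194 to 0.426) and 13.8 and 2.03 in plasma cells (0.148, 0.0696 to 0.279). Ccnb1 and Ccnb2, cyclins B, had T cell ratios of 0.304 (0.126 to 0.639) and 0.391 (0.254 to 0.583), and Cdk1 0.525 (0.346 to 0.776). These members have low levels, so only Ccna2 passed 1.5-fold after 10 per 1000000 was added. In conventional dendritic cells the group had 23.9 and 23.5 (0.985, 0.790 to 1.23).

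Among mitotic and checkpoint kinases, Bub1 and Bub1b, which guard chromosome attachment, differed. Bub1 had 7 and 1.55 in T cells (0.221, 0.111 to 0.4), while Bub1b had 11.1 and 9.91 (0.892, 0.676 to 1.17). In plasma cells Bub1b had 23.9 and 24.6 (1.03, 0.824 to 1.28). The Aurora kinases split in the same way: Aurkb, of the chromosomal passenger complex, had 6.32 and 1.42 in T cells (0.224, 0.109 to 0.416), and Aurka, of the spindle poles, had 6.15 and 7.47 (1.21, 0.867 to 1.68). In plasma cells Aurkb counted 74 UMIs in WT and 3 in KO (0.0995, 0.0201 to 0.302). Plk1, which acts at spindle poles and kinetochores, had 35 UMIs in WT and 7 in KO T cells. In conventional dendritic cells this group had its largest ratio, 17.2 in WT and 29.1 in KO (1.69, 1.34 to 2.14), with Bub1b at 5.75 and 10.6 (1.85, 1.24 to 2.80).

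Centromere and chromosomal passenger members had ratios of 0.447 (0.403 to 0.496) in T cells, 0.357 (0.296 to 0.428) in plasma cells and 0.590 (0.526 to 0.661) in B cells. Birc5 (survivin) had 30.8 and 5.28 in T cells (0.171, 0.122 to 0.235), 25 and 3.26 in plasma cells (0.130, 0.0734 to 0.215) and 18.7 and 4.38 in B cells (0.235, 0.158 to 0.343). Cdca8 (borealin), its partner, had 13 and 4.38 in T cells (0.337, 0.228 to 0.485). Cenpf, a kinetochore protein, had 11 and 1.15 in B cells (0.104, 0.0489 to 0.202) and 9.60 and 2.70 in T cells (0.282, 0.170 to 0.445). Cenpe, the kinesin of the kinetochore, had 12.6 and 5.79 in T cells (0.460, 0.326 to 0.636). Cenpa, the histone H3 variant of the centromere, stood closer between the libraries, with 61.2 and 38.8 in T cells (0.633, 0.556 to 0.720), 63.2 and 55.1 in B cells (0.873, 0.756 to 1.01) and 67.3 and 66.9 in conventional dendritic cells (0.994, 0.873 to 1.13).

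Of the spindle and microtubule members, Stmn1, which destabilises microtubules, had 124.8 and 51.2 in T cells (0.411, 0.368 to 0.457), 57.3 and 15.9 in plasma cells (0.277, 0.216 to 0.351) but 108.3 and 85.5 in B cells (0.789, 0.706 to 0.883). Kif11, the motor that pushes spindle poles apart, had 38.8 and 16.7 in T cells (0.431, 0.355 to 0.521) and 21.4 and 6.05 in B cells (0.282, 0.201 to 0.394). Kif23, the motor of the central spindle in cytokinesis, had 39.6 and 41.8 in T cells (1.06, 0.923 to 1.21) and 9.61 and 9.36 in plasma cells (0.974, 0.676 to 1.38). In ILC2 Kif23 had 126.0 in WT, from 75 UMIs, and a ratio of 1.49 (1.10 to 2.02). In neutrophils Kif23 was the member past 2-fold against the direction of the summed G2/M level. It had 12 UMIs in WT and 74 in KO (ratio 2.46, 1.33 to 4.97). In that class 3 members could be counted, and 15% of all genes were higher past 1.5-fold, 4.79% past 2-fold. The summed G2/M ratio there, 0.787 (0.622 to 1.0), rested on 1 WT cell with 31.7% of the G2/M UMIs. Without multi-member cells that ratio was 1.09 (0.824 to 1.45), so its direction was not settled. Tpx2, Nusap1 and Hmmr, which bind spindle microtubules, had T cell ratios of 0.563 (0.390 to 0.797), 0.544 (0.411 to 0.711) and 0.513 (0.290 to 0.864).

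The last group, Mki67, Top2a and Ube2c, had the lowest ratios in B cells (0.240, 0.205 to 0.281), plasma cells (0.235, 0.201 to 0.274) and T cells (0.324, 0.290 to 0.360). Mki67, the Ki-67 protein that coats mitotic chromosomes, had 49.0 and 18.3 in T cells (0.373, 0.310 to 0.446), 65.2 and 13.6 in plasma cells (0.209, 0.160 to 0.268) and 31.6 and 5.21 in B cells (0.165, 0.117 to 0.229). In conventional dendritic cells it was higher in KO, with 35.4 and 54.9 (1.55, 1.32 to 1.83), though short of 1.5-fold after 10 was added. Top2a, which untangles DNA, had 75.4 and 26.8 in T cells (0.355, 0.305 to 0.411) and 55.1 and 16.9 in B cells (0.306, 0.250 to 0.374). Ube2c, the enzyme that feeds ubiquitin to the anaphase-promoting complex, had 29.5 and 4.76 in T cells (0.161, 0.112 to 0.225), 32.2 and 3.46 in plasma cells (0.107, 0.0619 to 0.174) and 19.1 and 3.34 in B cells (0.175, 0.113 to 0.264). In monocytes or macrophages, where few cells had several members, Mki67 had 39.6 in WT at a ratio of 0.463 (0.380 to 0.563) while Ki-67's companion Top2a had 8.37 at 0.706 (0.480 to 1.03).

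Members differed in where their UMIs lay. In WT T cells, cells with at least 3 of the 39 other members held 88.4% of the Ccna2 UMIs, 84.8% of Aurkb, 83.1% of Bub1, 81.7% of Cenpf and 79.2% of Pclaf, while such cells held between 13% and 14.3% of all UMIs. The same kind of cells held 23.7% of Kif23, 23.8% of Pcna, 28.0% of Cenpa, 34.4% of Cdt1 and 40.7% of Aurka. All 5 were thus mostly found in cells without several other members. The KO:WT ratios of Kif23, Pcna, Cdt1 and Aurka lay near 1, but that of Cenpa was 0.633. Other members mostly outside these cells were also lower in KO, such as Mcm4 (38.9% of its UMIs, ratio 0.765), Dut (43.3%, ratio 0.413) and Mcm6 (43.4%, ratio 0.573). Across the 39 counted members of T cells, this WT share and the log2 ratio had Pearson's r of -0.44 and Spearman's rho of -0.43. In B cells (33 members) the values were -0.83 and -0.89, in plasma cells (37 members) -0.48 and -0.42, and in conventional dendritic cells (37 members) -0.24 and -0.23. Leaving out the 2 members farthest from the median share gave r of -0.34, -0.80, -0.39 and -0.24 in that order. The points share the same WT cells on both axes and members are not independent, so these are descriptions.

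**Figure D5:**
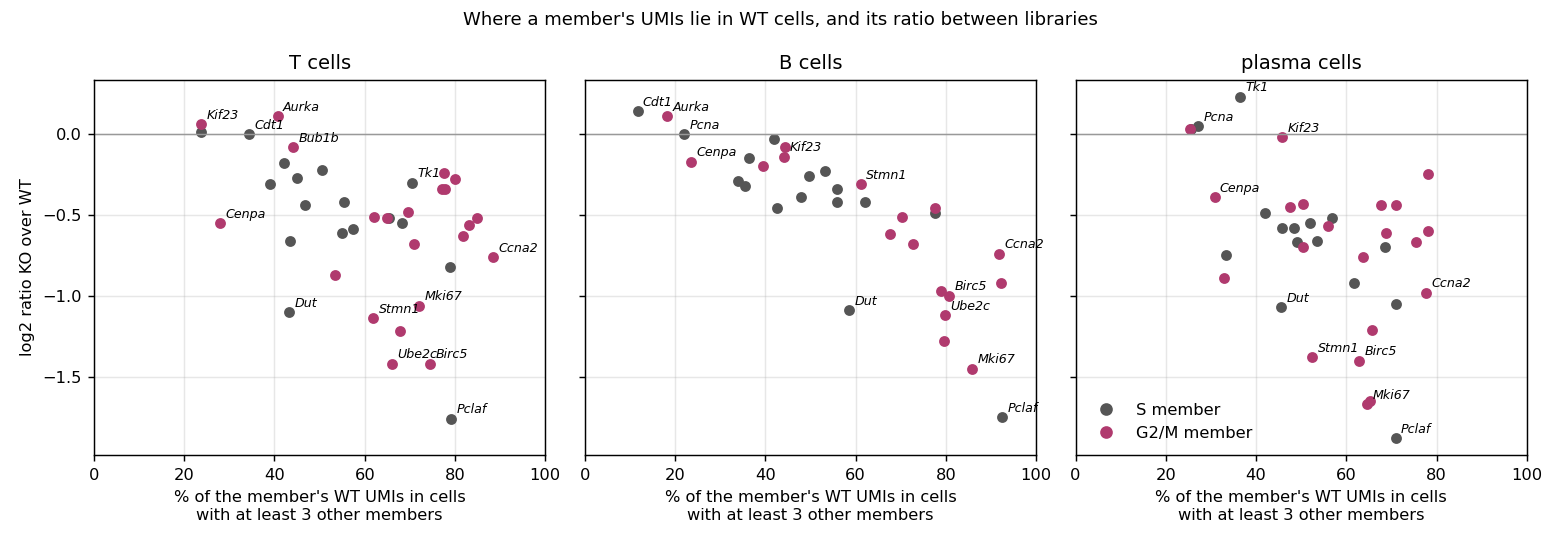
Share of each member's WT UMIs that lay in cells with at least 3 other members (x axis, %) against its log2 ratio of KO over WT (y axis), in T, B and plasma cells, with S members in grey and G2/M members in pink. In B cells the points fall from Cdt1 (11.7% of its UMIs) to Pclaf (92.4%), and in T and plasma cells the scatter is wider.

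Genes of the cycle outside the 40 members had summed ratios closer to 1 than the members in T, plasma and B cells. Of 46 other S phase genes counted in T cells 3 were lower past 1.5-fold and 0 higher, and of 51 other G2/M genes 12 were lower and 0 higher, where 2.83% of all genes were lower. In plasma cells 6 of 38 and 15 of 42 were lower (6.54% of all genes), and in B cells 4 of 45 and 7 of 40 (2.8% of all genes). Their summed ratios were 0.871 (0.851 to 0.891) and 0.692 (0.681 to 0.703) in T cells, and 0.681 (0.651 to 0.712) and 0.511 (0.494 to 0.529) in plasma cells. Lig1, the ligase that joins copied fragments, had the lowest log2 ratio of the S phase genes in both (0.455, 0.364 to 0.565 in T cells and 0.146, 0.0716 to 0.267 in plasma cells). It was followed by Gmnn, the inhibitor of Cdt1, in T cells (0.515) and by Pola1 in plasma cells (0.337). Slbp (1.10) and Nasp (1.14) were at the high end in T cells, and Slbp (0.964) and Rfc3 (0.853) in plasma cells. Cks1b, a Cdk-binding protein, had the lowest log2 ratio of the G2/M genes in both (0.302, 0.240 to 0.376, and 0.137, 0.0906 to 0.199), with Smc2 (0.432) next in T cells and Tuba1b (0.326) in plasma cells. Tubb4b (1.03) and Ccnf (0.968) were highest in T cells, and Tuba1c (1.02) and Pttg1 (0.934) in plasma cells.

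G1 cyclins, kinases and E2F genes had 0 of 20 lower and 0 of 20 higher in T cells, against 2.83% and 1.91% of all genes. In plasma cells 1 of 19 was lower and 0 higher, against 6.54% and 2.22% of all genes. These counts are near the background. E2f2 (0.442) and Rbl1 (0.672) were lowest and Myc (1.30) and Ccnd2 (1.29) highest in T cells. In plasma cells Cdk4 (0.511) and Lin54 (0.638) were lowest and Myc (1.23) and Ccne2 (1.38) highest. Of the inhibitors and checkpoint genes, 2 of 24 were higher past 1.5-fold in T cells (Cdkn1a and Ccng1) and 1 of 22 in plasma cells (Mdm2), against 1.91% and 2.22% of all genes, so the plasma cell count is near the background. Cdkn1a, the p21 inhibitor, had 240.4 in WT and 418.7 in KO T cells (1.74, 1.66 to 1.82), 59.2 and 88.7 in plasma cells (1.5, 1.33 to 1.69), and a ratio of 1.70 (1.48 to 1.95) in NK cells. In B cells its ratio was 1.25 (1.08 to 1.45), in conventional dendritic cells 1.11 (1.04 to 1.18) and in monocytes or macrophages 0.972 (0.93 to 1.02). Ccng1, another p53 target, had 1.66 in T cells (1.52 to 1.83), with Cdc25b (0.444) and Fzr1 (0.634) lowest. In plasma cells Mdm2, which degrades p53, had 1.52 (1.45 to 1.59) and Btg1 1.45, with Fzr1 (0.519) and Wee1 (0.657) lowest. Cdkn1a thus stood higher in KO in the T and plasma cells where the members stood lower. Its part in that difference was not tested.

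Within a library, multi-member cells carried other genes of the cycle as well. As these cells were chosen by the members, this describes them and tests nothing. In WT T cells 35 of 48 other S phase genes and 44 of 59 other G2/M genes were higher past 2-fold than in other T cells (2.99% of all genes), and in KO 30 of 44 and 26 of 38 (4.09%). In WT B cells these were 32 of 44 and 36 of 41 (5.88%), and in KO B cells 25 of 46 and 15 of 40 (3.47%). WT plasma cells had 36 of 45 and 51 of 55 (8.6%), and the 7 KO plasma cells 18 of 28 and 19 of 24 (17.1%). Conventional dendritic cells had 27 of 44 and 25 of 35 in WT (2.58%), and 26 of 43 and 28 of 40 in KO (2.54%). Outside all lists, the genes with the highest ratios in both libraries in T cells were Hist1h2ap, Brca1, Cenpp, Ncapg2, Hist1h1b, Tubb5, Mms22l, Shcbp1, Diaph3 and Hmgn2. The replication histone Hist1h2ap had 291.9 in multi-member and 11.6 in other WT T cells, and 400.0 and 17.9 in KO. Brca1, of DNA repair, had 154.8 and 8.66 in WT and 165.1 and 11.7 in KO. In B cells the 10 genes were Hist1h2ap, Tubb5, Shcbp1, Cenpp, Diaph3, Mms22l, Fbxo5, Brip1, Txn1 and Ncapg2. Hist1h2ap there had 311.6 and 6.26 in WT but 128.4 and 15.7 in KO.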

How the data were processed

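Each library came as a filtered matrix of raw UMI counts (genes by barcodes), which the authors had produced with Cell Ranger 7.0.0 against GRCm38, per the submitters' processing notes. Barcodes with at least 500 UMIs, at least 200 genes and at most 20% mitochondrial UMIs were kept. Called doublets (5.85% of WT and 4.79% of KO barcodes) were left out. Cells were clustered on 2000 variable genes and 30 principal components, with 20 neighbours and Leiden resolution 1 (scanpy 1.11.5, leidenalg 0.10.2), without the genes of the cell cycle lists. Clusters were named from marker lists by a rule written after the clusters had been seen, and 5 clusters stayed unnamed. The members, their roles and all gene lists were chosen with earlier results of these data known.

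Shares were counted on cells thinned to 1000 UMIs, with Clopper-Pearson intervals. The bounds of a ratio of shares come from opposite ends of both intervals. Levels were raw UMIs per 1000000, with exact Poisson intervals, and their ratios had conditional binomial intervals. A count of 0 allows up to 3 counts. Members with at least 50 UMIs over both libraries were compared, in the 9 named classes where WT and KO each had 100 kept cells or more. Named genes were all 40 members, Dpf2, Cdkn1a, the 2 lowest and 2 highest of each other list in T and plasma cells, members past 2-fold against their set, and the 10 genes outside the lists that led multi-member T and B cells. The same counts for plasma and dendritic cells were added after their values were seen. The calculations were checked on simulated data, and 25 other settings were tried. The range over 20 random thinnings was added after the data had been seen.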

Additional observations from a re-analysis of the deposited data

Results flagged for a closer look

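KO:WT ratios of summed levels lay on opposite sides of 1 in different classes, each with a counting interval that left out 1. Whether classes differed was not tested, since each genotype had 1 library. For the S members the ratio was below 1 in T cells (0.658), NK cells (0.774), ILC3 (0.8), B cells (0.739), plasma cells (0.525) and neutrophils (0.677). It was above 1 in conventional dendritic cells (1.07) and in monocytes or macrophages (1.17). For the G2/M members it was below 1 in T cells (0.459), NK cells (0.616), ILC2 (0.771), ILC3 (0.611), B cells (0.531) and plasma cells (0.357), and above 1 in conventional dendritic cells (1.14). The neutrophil value rested on 1 WT cell, as given above, and the dendritic cell values turned under other classes.

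Cells outside every comparison also held several members. In the unnamed clusters, at least 3 members were found in 17 of 430 thinned WT cells (3.95%) and 19 of 434 KO cells (4.38%), above the shares in neutrophils. Their summed levels were higher in KO, with 282.8 and 577.4 for S (2.04, 1.84 to 2.27). For G2/M they were 180.1 and 548.4 (3.05, 2.69 to 3.46). The unnamed cells were spread over different clusters in the 2 libraries. In 1 unnamed cluster, the Paneth cell markers Lyz1, Defa24 and Defa30 led beside the B cell markers Pax5, Ebf1 and Bank1. That cluster held 2 WT and 262 KO cells. It was not counted among the B cells. Among barcodes called doublets they were found in 27 of 620 in WT (4.35%) and 15 of 405 in KO (3.7%).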

How the results depend on the processing

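No paired analysis was possible because each genotype had 1 library and no replicate number. All values here are KO:WT ratios or counts of members, and the cause of each change was not tested unless stated. Share of multi-member cells: requiring at least 2 members gave 0.696 in T, 0.986 in B and 0.5 in plasma cells. At least 4 gave 0.204 in B cells, and at least 5 gave 0.22 in T and 0.1 in B cells. Thinning to 2000 UMIs gave 0.626 in T and 1.0 in B cells. No thinning gave 0.89 in T, 1.07 in B and 0.715 in plasma cells. Leaving out Stmn1 and Pcna gave 0.269 in B cells. Cells with Xist alone gave 4.06 in conventional dendritic cells (0.555 to 60.0), from 2 of 142 WT and 10 of 175 KO cells. Those with Y-linked transcripts alone turned the ratio round to 0.852 (0.271 to 2.58), from 16 of 238 WT and 11 of 192 KO cells. Among plasma cells with Y-linked transcripts alone, 16 of 305 WT and 0 of 110 KO cells had 3 members, a ratio of 0 with an upper bound of 1.09.

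Summed S level: keeping cell cycle genes in the clustering gave 0.849 in T and 1.07 in NK cells. Resolution 2 gave 1.23 in NK cells. Keeping doublets gave 0.781 in B and 1.02 in conventional dendritic cells. Classes from marker UMIs gave 0.698 in B, 0.782 in plasma and 0.899 in conventional dendritic cells. Xist alone gave 0.631 in T cells, 0.658 in B cells, 0.795 in conventional dendritic cells and 1.58 in ILC3. Y-linked transcripts alone gave 0.744 in T cells, 0.942 in B cells and 1.39 in neutrophils. Equal weight per cell gave 0.818 in T, 0.933 in B and 0.618 in plasma cells. Thinned cells gave 0.834 in T, 0.943 in B, 0.668 in plasma and 1.0 in NK cells. Leaving out the member with the most UMIs gave 0.557 in T, 0.665 in B, 0.421 in plasma and 0.998 in conventional dendritic cells.

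Summed G2/M level: keeping cell cycle genes in the clustering gave 0.595 in T and 0.497 in B cells. Resolution 2 gave 1.12 in NK cells. Keeping doublets gave 0.57 in B cells, 1.08 in conventional dendritic cells and 1.11 in neutrophils. Classes from marker UMIs gave 0.603 in plasma and 0.814 in conventional dendritic cells. Xist alone gave 0.366 in T, 0.373 in B, 0.456 in plasma and 0.846 in conventional dendritic cells, 1.86 in ILC2 and 1.61 in ILC3. Y-linked transcripts alone gave 0.575 in T, 0.829 in B, 0.295 in plasma and 1.32 in conventional dendritic cells, and 1.45 in ILC2. Equal weight per cell gave 0.615 in T, 0.826 in B and 0.47 in plasma cells, and 1.02 in ILC2. Thinned cells gave 0.607 in T, 0.737 in B, 0.546 in plasma and 1.28 in conventional dendritic cells, 1.48 in ILC2 and 1.09 in neutrophils. Without the member with the most UMIs, B cells gave 0.452.

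Members lower past 1.5-fold: a pseudocount of 1 gave 30 in T, 17 in B and 31 in plasma cells, and 50 gave 4, 3 and 5. A 2-fold limit gave 7, 5 and 8. Keeping cell cycle genes in the clustering gave 8 in T cells, classes from marker UMIs 10 in plasma cells, and Y-linked transcripts alone 9 in T and 1 in B cells. In conventional dendritic cells, Y-linked transcripts alone gave 2 and a pseudocount of 1 gave 3 members higher. Apart from those at the 2-fold limit, these counts have no share of all genes to set them against. Of the values in T, B, plasma and conventional dendritic cells, 132 stayed near the reported one, 64 moved and 7 turned direction (these given above). In the other classes, and for G2/M UMIs in cells chosen by S members, 177 stayed, 48 moved and 13 turned direction (all 13 given above).

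In T and plasma cells the ratios of the shares and of both summed levels stayed below 1 under every setting that gave a value. Intervals of the share ratio passed 1 in some of the smaller sets. These were T cells with Y-linked transcripts alone (0.54, 0.226 to 1.17) and plasma cells with Xist alone (0.349, 0.0672 to 1.3) or Y-linked transcripts alone. In T cells with Xist alone the interval stayed below 1 (0.323, 0.149 to 0.656). Depth limits the rest: at 1000 UMIs most cells show no member, classes under 100 cells allow shares of several percent at a count of 0, and multi-member cells are few in KO plasma cells.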
